A study of Mus musculus with 12 samples.

Results

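The genes that encode the proteins of the cytosolic ribosome were followed across 12 liver arrays. They were found by symbol: a probe was taken if its accession mapped to a mouse gene named Rpl or Rps with a number, or to Rplp0, Rplp1, Rplp2 or Rpsa, while kinases of the Rps6k family, pseudogenes and mitochondrial (Mrp) genes were left out. No measured value entered the rule. It gave 85 genes in the RefSeq gene table, of which 83 had a probe on the array and 81 passed the filter on dim probes, out of 25270 genes or unnamed probes in all. Rpl10l and Rpl32l had no probe here, and Rpl3l and Rpl39l were too dim. Of the 81 genes, 43 encode proteins of the large subunit, 31 proteins of the small subunit and 3 the acidic stalk, and 4 are paralogues (Rpl7l1, Rpl22l1, Rpl36al and Rps27l).

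All mice were C57BL/6 and carried MycF/F, a Myc gene flanked by sites that Cre recombinase can cut. The livers came from MycF/F mice on control diet (n = 1 array, whose RNA is labelled as pooled liver), MycF/F mice on a diet with 0.1% Wy-14643 (n = 3), 4 arrays of MycF/F,ERT2-Cre mice on control diet and 4 arrays of MycF/F,ERT2-Cre mice on 0.1% Wy-14643, each after 2 days of diet. The labels call the first genotype wild type and the second knockout. ERT2-Cre is a Cre fused to a mutated oestrogen receptor that is switched on by tamoxifen. Wy-14643 activates PPARα, a nuclear receptor behind fatty acid oxidation genes of hepatocytes. Tamoxifen, age, sex, the promoter of the Cre gene and the animal behind each array are not among the labels used here, so the spread behind each p-value is that of these samples and could be technical.

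A ribosome is built from ribosomal RNA and a copy of each of most ribosomal proteins, so the genes of both subunits are made in step, and they supply some of the most abundant messenger RNAs of a liver cell. Their messenger RNAs typically begin with a run of C and T bases at the 5′ end, the 5′ terminal oligopyrimidine (TOP) tract, through which mTOR and LARP1 control their translation. MYC is known as a driver of ribosome production, and the liver grows rapidly when rodents are given a PPARα agonist.

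The start regions of 8 of the genes whose values are described below are shown so that runs of C and T near the start, long in some and short in others, can be seen. Each stretch is RefSeq sequence of GRCm38.p6, running from 40 bases before to 20 bases from the annotated start onwards, and the capitals mark the longest run of C or T within 20 bases of the start. Rpl12 lies at chr2:32961672-32961731 (plus strand) and Rps12 at chr10:23787190-23787249 (minus strand). Rplp2 lies at chr7:141447611-141447670 (plus strand), Rps26 at chr10:128626487-128626546 (minus strand) and Rpl35 at chr2:39005112-39005171 (minus strand). Rplp0 lies at chr5:115559427-115559486 (plus strand), Rpl10 at chrX:74270776-74270835 (plus strand) and Rpl36al at chr12:69184048-69184107 (minus strand).
Rpl12: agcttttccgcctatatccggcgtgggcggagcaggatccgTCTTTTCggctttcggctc
Rps12: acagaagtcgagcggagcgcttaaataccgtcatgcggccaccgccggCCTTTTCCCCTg
Rplp2: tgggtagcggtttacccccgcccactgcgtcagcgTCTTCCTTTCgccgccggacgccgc
Rps26: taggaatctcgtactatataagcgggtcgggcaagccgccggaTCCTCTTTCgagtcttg
Rpl35: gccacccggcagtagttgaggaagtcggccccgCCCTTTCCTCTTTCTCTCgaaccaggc
Rplp0: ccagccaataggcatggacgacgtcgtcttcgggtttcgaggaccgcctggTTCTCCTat
Rpl10: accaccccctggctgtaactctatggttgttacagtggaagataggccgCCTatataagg
Rpl36al: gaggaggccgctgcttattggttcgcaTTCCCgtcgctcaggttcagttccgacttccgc

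A start region was listed for 61 of the 81 genes. A run of 8 or more C or T bases (either base at each position, read in the direction of transcription) was found within 20 bases of the start in 30 of these 61 genes, or 49.2%, against 18.4% of 27025 genes in the same table. The longest such run had a median length of 7 bases in the ribosomal protein genes and 5 bases in all genes. A run counted in this way can lie wholly before the start, and so outside the messenger RNA, as that of Rpl36al does. The run that covers the annotated start had a median length of 0 bases in both sets. The start was a C or T in 49.2% of the ribosomal protein genes and 33.2% of all genes. Among the sequences printed, Rpl35 had the longest run with 18 bases, Rpl10 had 3 and Rpl36al had 5. The letters CACGTG, the same on both strands, occurred in the 300-base windows of 6 genes (9.84%, against 8.09% of all genes), and TATAAA on either strand in 7 (11.5%, against 15.7%). These matches describe letters only. The medians of the log2 differences given below were close between the 30 genes with a run of 8 or more and the 31 without, at −0.39 and −0.35 for genotype on Wy-14643.

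Every value below is a log2 ratio of sample RNA (Cy5) to a pooled liver reference (Cy3) that was present on every array, so ratios compare samples for 1 gene and not the levels of different genes. The Cy5 signal was 2.64 to 4.82 times the background by the median of each array, and 94.1% to 96.6% of the ribosomal protein spots were well above background, with none saturated. The arrays were read on 3 slides, and the slide with MycF/F on Wy-14643 replicate 1, the MycF/F,ERT2-Cre replicates numbered 1 and 2 on control diet and number 1 on Wy-14643 stood apart. On these 4 arrays of slide 1 the scanner software had marked 39.5% to 49.6% of the ribosomal protein spots as outliers, against 5.47% to 8.35% of all spots. Spots so marked were left out, so 33 to 42 of the 81 genes have no value on each array of slide 1, and 28 genes have a value on all 12 arrays. The count of arrays behind a mean is therefore given with it, and results are also given with the marked spots kept or without slide 1. The 12 PPARα target genes used as a check of the diet had mean log2 ratios per array of −2.67 to −2.02 in the 5 control livers and 0.68 to 1.07 in the 7 livers on Wy-14643.

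Myc itself had a log2 ratio of 0.58 on the lone MycF/F control array, and of 0.62 and 0.51 in MycF/F livers on Wy-14643 (n = 2). It read 0.72, 0.41, 0.42 and 0.01 in MycF/F,ERT2-Cre livers on control diet, and −0.01, 0.05 and −0.07 in those on Wy-14643 (n = 3). On Wy-14643 the genotypes did not overlap, with a log2 difference of −0.57 (SE 0.17, limma adjusted p = 0.281), while on control diet the lone MycF/F array lay within the range of the MycF/F,ERT2-Cre arrays. The probe was not placed on the gene, so it is not known whether it lies in the floxed part, and a probe outside it would not check the deletion.

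The level of the ribosomal protein genes as a group was highest in MycF/F livers on Wy-14643. Their median log2 ratio was −0.01 on the MycF/F control array. It was 0.38, 0.31 and 0.41 in MycF/F livers on Wy-14643 (mean 0.37 ± 0.05, SD, n = 3). In MycF/F,ERT2-Cre livers it was −0.15, −0.07, 0.02 and −0.17 on control diet (−0.09 ± 0.085, SD, n = 4) and 0.19, 0.02, −0.12 and −0.07 on Wy-14643 (0.01 ± 0.13, SD, n = 4). All 3 arrays of MycF/F livers on Wy-14643 lay above the other 9, and the MycF/F,ERT2-Cre arrays of the 2 diets overlapped. Over all genes the array medians were between 0.01 and 0.04, a level that the normalisation within each array sets near 0. With the marked spots kept, the 3 medians of MycF/F livers on Wy-14643 were 0.39, 0.31 and 0.41 and the highest of the other 9 was 0.19.

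**Figure D1:**
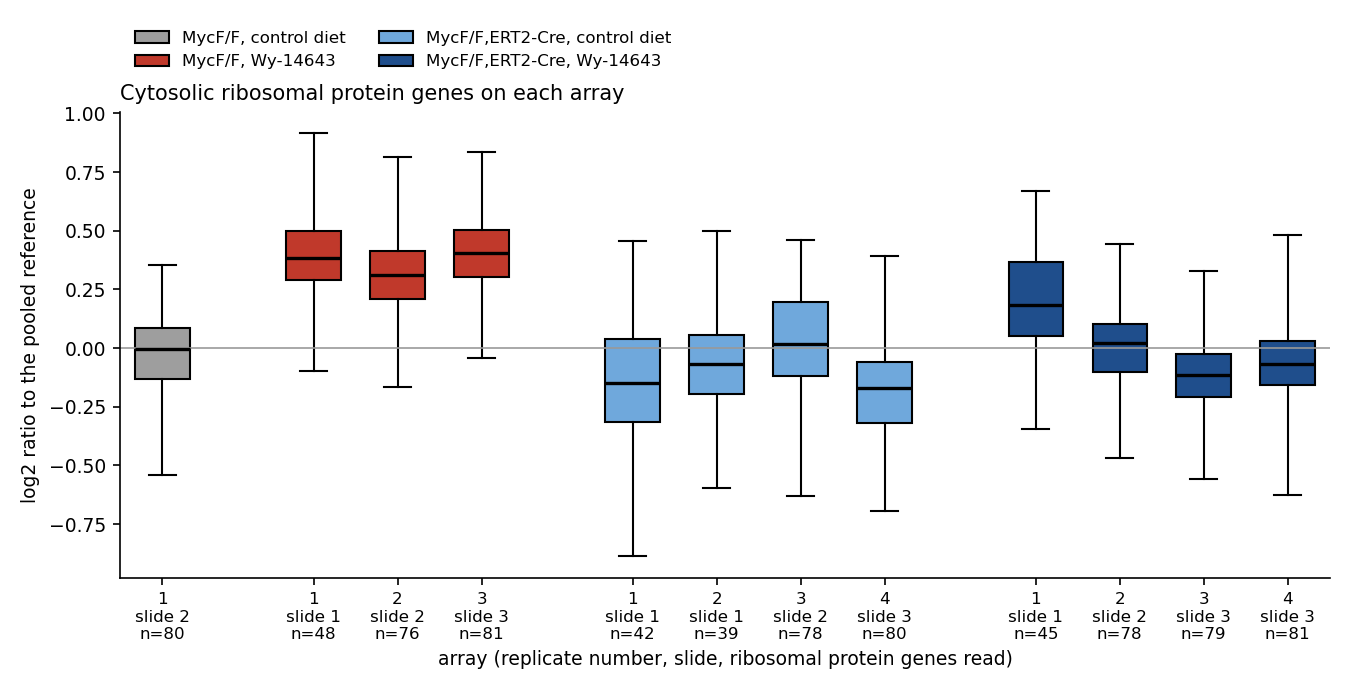
Log2 ratio to the pooled reference (y axis) of the cytosolic ribosomal protein genes on each of the 12 arrays (x axis, with replicate number, slide and number of genes read). Boxes span the quartiles over genes, lines inside them are medians, and whiskers reach the lowest and highest gene. The medians of the 3 MycF/F arrays on Wy-14643 (0.31 to 0.41) stand above those of all other arrays (−0.17 to 0.19).

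The first comparison asked how livers of the 2 genotypes differed on Wy-14643, 4 MycF/F,ERT2-Cre arrays against 3 MycF/F arrays. Ribosomal protein genes of both subunits and of the stalk were lower in MycF/F,ERT2-Cre livers, by a median log2 difference of −0.37, where the median of all genes was 0.02. Of the 81 genes, 79 had a difference below 0, against 43.1% of all genes tested. After adjustment over all 25166 genes tested 3 of the 81 fell (Rplp1, Rpl12 and Rps12) and none rose, where 0.0676% of all genes were called in either direction and 0.0517% as lower. At an unadjusted p under 0.05, 67 of the 81 were lower and 0 higher, against 8.45% of all genes in either direction. In whole-liver RNA, fewer cells of a type and less RNA per cell cannot be told apart.

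Rplp1 encodes a protein of the P-stalk, the flexible arm of the large subunit that recruits elongation factors. Its log2 ratio was 0.84, 0.81 and 0.80 in MycF/F livers on Wy-14643 and −0.15, −0.10 and −0.08 in MycF/F,ERT2-Cre livers (n = 3, no value on slide 1). The 2 sets were far apart and each was tight, with a difference of −0.93 (SE 0.08, limma adjusted p = 0.0155), or 1.9-fold lower. Rpl12 encodes the large-subunit protein at the base of that stalk. It read 0.59, 0.47 and 0.42 against −0.04, −0.34, −0.44 and −0.41, without overlap, a difference of −0.80 (SE 0.10, limma adjusted p = 0.0257), or 1.74-fold lower. Rps12, a small-subunit protein of the head of the subunit, read 0.74, 0.74 and 0.75 against 0.22, 0.09, −0.07 and −0.04. Its difference was −0.69 (SE 0.09, limma adjusted p = 0.0257), or 1.62-fold lower. On the lone MycF/F control array these 3 genes read 0.35, 0.00 and 0.17, and in MycF/F,ERT2-Cre livers on control diet their means were 0.07 (n = 3), −0.32 (n = 4) and 0.00 (n = 4), so the high values were those of MycF/F livers on Wy-14643.

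The 3 calls were lost under several alternatives. With the deposited log ratio the adjusted p was 0.161 to 0.162, with arrays centred on their medians in place of loess it was 1 for each, and with Cy5 alone it was 0.504 to 1, with differences of −1.03 to −0.55. None of the 3 was called, and no other of the 81 genes, when any 1 of the 3 MycF/F arrays on Wy-14643 or any 1 of MycF/F,ERT2-Cre replicates 2, 3 and 4 on Wy-14643 was left out. With the replicate number as a block, 0 of the 57 genes that could be fitted were called. The adjusted p of Rplp1, Rpl12 and Rps12 was then 0.0728. Equal numbers lie on the same slide on Wy-14643, but the fit also holds control diet arrays, some on other slides. With the slide itself as a block, 3 of the 60 genes that could be fitted were called, all lower, against 0.124% of all genes in either direction. The sizes moved little: leaving out 1 array at a time, Rplp1 stayed between −0.94 and −0.91, Rpl12 between −0.89 and −0.75 and Rps12 between −0.75 and −0.65. Only leaving out an array on Wy-14643 can move these sizes. With the marked spots kept 8 of the 81 were called, all lower, against 0.135% of all genes in either direction. Without slide 1, 10 of the 81 were called, all lower, against 0.438%. The share of all genes called was thus also above the 0.0676% of the main fit.

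The shift itself was spread over the group and over the slides. Of the 39 genes with a value on all 7 arrays of this comparison, 27 were lower on every MycF/F,ERT2-Cre array than on every MycF/F array and 0 were higher on every array, where 5.26% and 5.44% of all genes with such values were. Within slide 1 the genes' median difference was −0.19 (34 of 40 below 0, 1 array against 1). It was −0.30 within slide 2 (72 of 75, 1 against 1) and −0.49 within slide 3 (81 of 81, 2 against 1). The shift was thus smaller on slide 1, whose MycF/F,ERT2-Cre array on Wy-14643 had the highest median of its group at 0.19. By subunit, all 43 large-subunit genes were below 0 (median −0.38), as were 30 of 31 small-subunit genes (−0.36), all 3 stalk genes (−0.63) and 3 of 4 paralogues (−0.22).

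**Figure D2:**
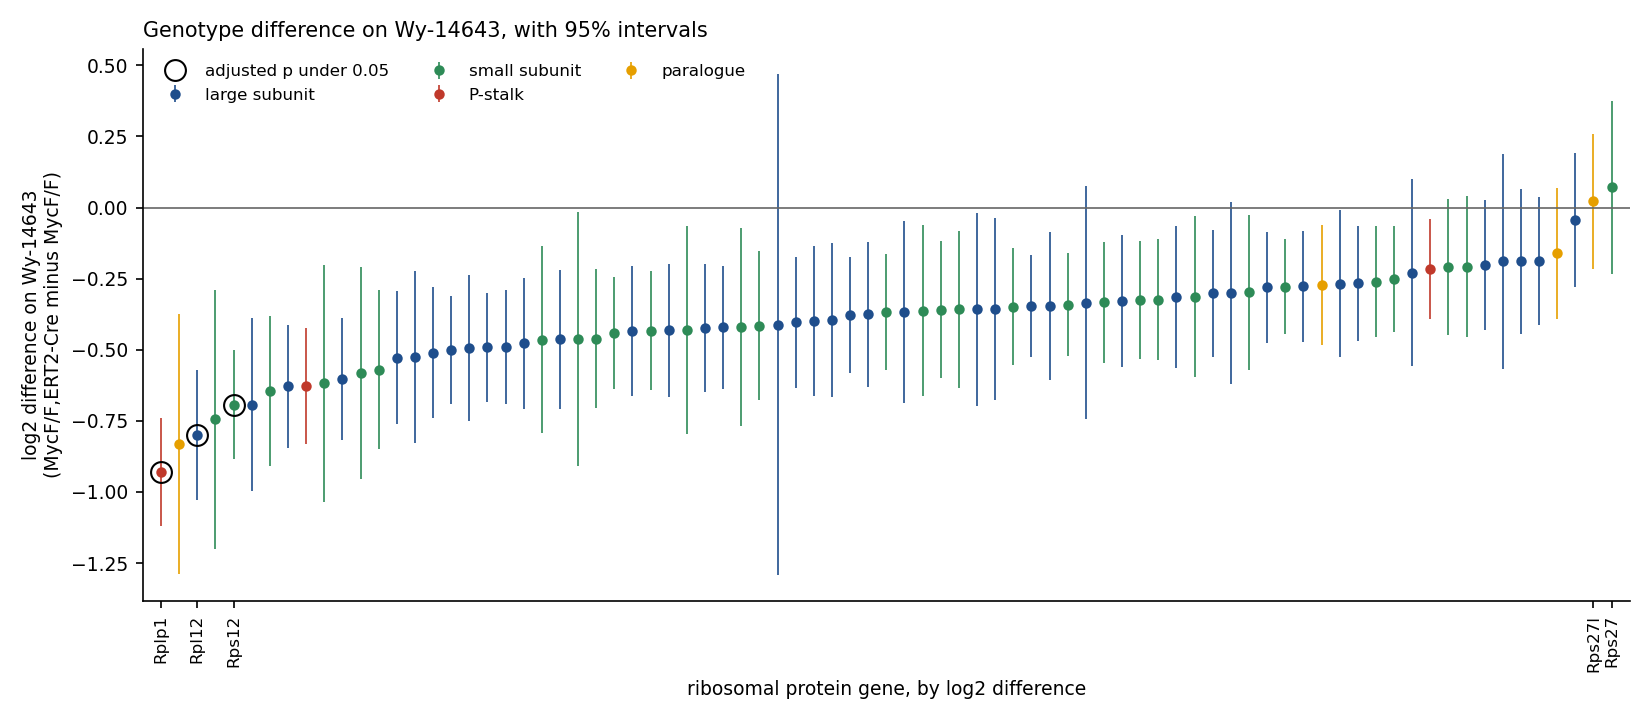
Log2 difference on Wy-14643, MycF/F,ERT2-Cre minus MycF/F (y axis), of the 81 ribosomal protein genes in order of size (x axis). Points are estimates coloured by place in the ribosome, bars are 95% intervals, and rings mark the 3 genes with an adjusted p under 0.05, which are named on the axis with the 2 genes above 0. The points run from −0.93 (Rplp1) to 0.07 (Rps27), with 79 below 0.

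The other stalk proteins were lower by different amounts. Rplp0, which anchors the stalk and is widely used as a reference gene, read 0.49 and 0.39 in MycF/F livers on Wy-14643 (n = 2) and −0.09, −0.18, −0.24 and −0.25 in MycF/F,ERT2-Cre livers. The sets did not overlap, and its difference of −0.63 (SE 0.09) lay at the threshold, with a limma adjusted p of 0.051. Rplp2, the partner of Rplp1 in the stalk, read 0.55, 0.60 and 0.59 against 0.54, 0.31, 0.33 and 0.28. Its difference was −0.22 (SE 0.08, limma adjusted p = 0.436), with the slide 1 array of MycF/F,ERT2-Cre close to the MycF/F arrays.

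Several proteins with roles outside the ribosome are of interest in the liver. Rpl5, Rpl11 and Rpl23 encode proteins that, when free, bind MDM2 and can stabilise p53. Their differences were −0.30 (95% interval ± 0.22), −0.19 (± 0.22) and −0.53 (± 0.30), and none was called. Rpl26, which binds p53 messenger RNA, had a difference of −0.36 (± 0.34), and Rps3, which also acts in DNA repair, a difference of −0.33 (± 0.21). Rps7 and Rps14, further MDM2 binders, had −0.46 (± 0.33) and −0.26 (± 0.20), and Rps27a, which is made as a fusion with ubiquitin, −0.62 (± 0.42). Rps19, the gene most often mutated in Diamond-Blackfan anaemia, had −0.42 (± 0.35), and Rpl13a, a subunit of an interferon-induced translation silencer, −0.49 (± 0.19). Rpsa, also known as the laminin receptor, read 0.40 and 0.39 (n = 2) against −0.30 and −0.19 (n = 2), a difference of −0.65 (± 0.26), where its second probe gave −0.27. Of these 11 genes none passed the adjusted threshold and all were below 0.

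Rps6, the small-subunit protein that S6 kinase phosphorylates, was the least well read. It had a value on 1 MycF/F array (0.80) and on 2 MycF/F,ERT2-Cre arrays (−0.06 and 0.17) on Wy-14643, a difference of −0.74 (SE 0.18, limma adjusted p = 0.291). With the marked spots kept it read 0.55, 0.65 and 0.80 against 0.50, 0.39, −0.06 and 0.17, and the difference was −0.42. The sets then did not overlap, but the size was smaller. Rpl3, a large-subunit protein near the catalytic centre, had 1 MycF/F array on Wy-14643 and an interval of ± 0.88 around −0.41.

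The paralogues were compared with their partners. Rpl22l1 and Rpl22 encode proteins that can take the same place in the large subunit. Rpl22l1 read 0.52 and 0.55 in MycF/F livers on Wy-14643 (n = 2) and −0.27, −0.42 and −0.21 in MycF/F,ERT2-Cre livers (n = 3), without overlap. Its difference was −0.83 (SE 0.20, limma adjusted p = 0.19), and without slide 1 the same value had an adjusted p of 0.0209. With the marked spots kept, slide 1 added 0.45 and 0.40, the sets still did not overlap, and the difference was −0.63 (adjusted p = 0.403). Rpl22 had a difference of −0.19 (SE 0.12, limma adjusted p = 0.785).

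Rpl7 had −0.43 and Rpl7l1, a paralogue with a role in ribosome assembly, −0.16. Rpl36a had −0.40 and the near-identical Rpl36al −0.27, and arrays can cross-read such copies. The other 2 probes of Rpl36a had −0.58 and −0.62, the last of them called as lower (limma adjusted p = 0.0498 over probes). Rpl10 had −0.42, Rpl39 −0.69 and Rps4x −0.43, and their copies Rpl10l, Rpl39l and Rps4l were not among the genes measured. None of these was called by the probe that represents it. Rps27 and Rps27l were the only 2 genes not below 0, at 0.07 (± 0.30) and 0.02 (± 0.24). Their direction was not settled: Rps27l was below 0 with the deposited log ratio (−0.02) and under other settings, and Rps27 was below 0 without slide 1 (−0.06).

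Ribosomal proteins under other symbols were measured too. Rack1, a scaffold on the head of the small subunit, had a difference of −0.52 (SE 0.09, limma adjusted p = 0.0665). Fau, whose product is cut into a ubiquitin-like protein and eS30, had 0.00 (± 0.20). The sign of Fau changed with the scaling.

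Markers of liver cell types were read as well. In this comparison all 11 macrophage and Kupffer cell markers were above 0 (median 0.37, 0 called by limma). Their mean log2 ratio per array was −0.70 to −0.37 in MycF/F livers on Wy-14643 and −0.37 to −0.15 in MycF/F,ERT2-Cre livers. Endothelial markers had a median difference of 0.15 (2 of 10 below 0), hepatocyte markers 0.06 (1 of 7 below 0), lymphocyte markers 0.04, neutrophil markers 0.01, cholangiocyte markers 0.00, stellate cell markers −0.01 and erythroid markers −0.04, with none called. The part of cell content in the lower ribosomal protein values was not tested.

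Wy-14643 was then compared with control diet in MycF/F,ERT2-Cre livers, 4 arrays against 4. Few ribosomal protein genes changed: 5 of the 81 rose and 3 fell, where 16.4% of all 25162 genes tested were called (8.95% higher, 7.43% lower). The share of 8 in 81 was below that background, an order that turned with median centring, as given below. The median difference was 0.05 (all genes 0.03), and 52 genes were above 0 (56.2% of all genes) and 29 below. At an unadjusted p under 0.05, 9 were higher and 5 lower, against 28.1% of all genes in either direction.

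Rplp2, the stalk protein named above, rose. It read −0.32, −0.25, −0.25 and −0.38 on control diet and 0.54, 0.31, 0.33 and 0.28 on Wy-14643, without overlap, a difference of 0.66 (SE 0.08, limma adjusted p = 7.57e-05). Rps26, a small-subunit protein at the messenger RNA exit channel, read −0.54, −0.48, −0.32 and −0.65 against 0.14, 0.06, −0.09 and −0.01. It also did not overlap and rose by 0.52 (SE 0.08, limma adjusted p = 0.00101). Rpl31, a large-subunit protein at the exit of the peptide tunnel, rose by 0.37 (SE 0.09, limma adjusted p = 0.0109), from −0.18, −0.08, −0.02 and −0.30 to 0.10, 0.23, 0.19 and 0.39. These 3 were the 3 genes of 29 with a value on all 8 arrays that did not overlap as higher, and 0 were lower on every array, where 9.47% and 7.8% of all such genes were.

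Rpl23a, another protein of the tunnel exit, rose by 0.43 (SE 0.12, limma adjusted p = 0.0395, n = 2 and 4), and Rps9, a small-subunit protein of early assembly, by 0.27 (SE 0.07, limma adjusted p = 0.0231, n = 4 and 3). The call of Rpl23a was lost when any of 7 arrays was left out (adjusted p 0.0542 to 0.291). Its size was unchanged without any of the 3 MycF/F arrays on Wy-14643, 0.26 without control diet replicate 4 and 0.60 without control diet replicate 3. The call of Rps9 was lost without Wy-14643 replicate 2 or 3 (0.0854 and 0.07).

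Rpl10, a late-joining large-subunit protein whose loading permits subunit joining, fell. It read 0.35 and 0.39 on control diet (n = 2) and −0.32, −0.40 and −0.44 on Wy-14643 (n = 3), a difference of −0.76 (SE 0.10, limma adjusted p = 0.00115), or 1.69-fold lower. With the marked spots kept the control arrays ranged from 0.31 to 0.92 and the Wy-14643 arrays from −0.44 to −0.09, still apart, with a difference of −0.81. Rpl36al fell by 0.47 on the log2 scale (SE 0.10, limma adjusted p = 0.0143), from 0.37 and 0.26 (n = 2) to −0.03, −0.22 and −0.20 (n = 3), a call lost without control diet replicate 3 or Wy-14643 replicate 4. Rplp0 fell by 0.35 (SE 0.08, limma adjusted p = 0.0151), from 0.11, 0.24 and 0.12 (n = 3) to −0.09, −0.18, −0.24 and −0.25, a call lost without control diet replicate 2. That call was also lost with the mean of all probes of a gene (adjusted p = 0.0721) and without slide 1 (adjusted p = 0.0871). The sets of these 3 genes did not overlap. The 3 probes of Rpl36a disagreed, with differences of −0.33, 0.27 and 0.42 and only the last called as higher (limma adjusted p = 0.00859 over probes).

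The scaling mattered here. With arrays centred on their medians in place of loess, the median difference of the ribosomal protein genes was 0.46 in place of 0.05, 10 of 81 genes were called higher and 0 lower, against 3.54% of all genes in either direction. Of the 8 genes called under loess only Rplp2 and Rpl23a were then called. Rps26 had 0.79 (adjusted p = 0.0616), Rpl10 −0.15 (adjusted p = 0.877) and Rplp0 −0.12 (adjusted p = 0.939), and Rpl36al turned to 0.05. With Cy5 alone only Rps26 was called, against 5.11% of all genes in either direction. Rplp2 then had 0.20 (adjusted p = 0.811), Rpl10 −0.40 (adjusted p = 0.426), Rpl31 0.17, Rplp0 −0.16 and Rps9 0.068. All-gene medians were 0.02 and 0.03 under the 2 scalings. Under the deposited log ratio the median was 0.11, with 2 higher and 1 lower, against 14.3% of all genes in either direction. Rpl23a, Rpl31, Rps9, Rpl36al and Rplp0 were then not called (limma adjusted p 0.0503 to 0.132). The direction of the group as a whole in this comparison was thus close to 0 under loess and above 0 under median centring.

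**Figure D3:**
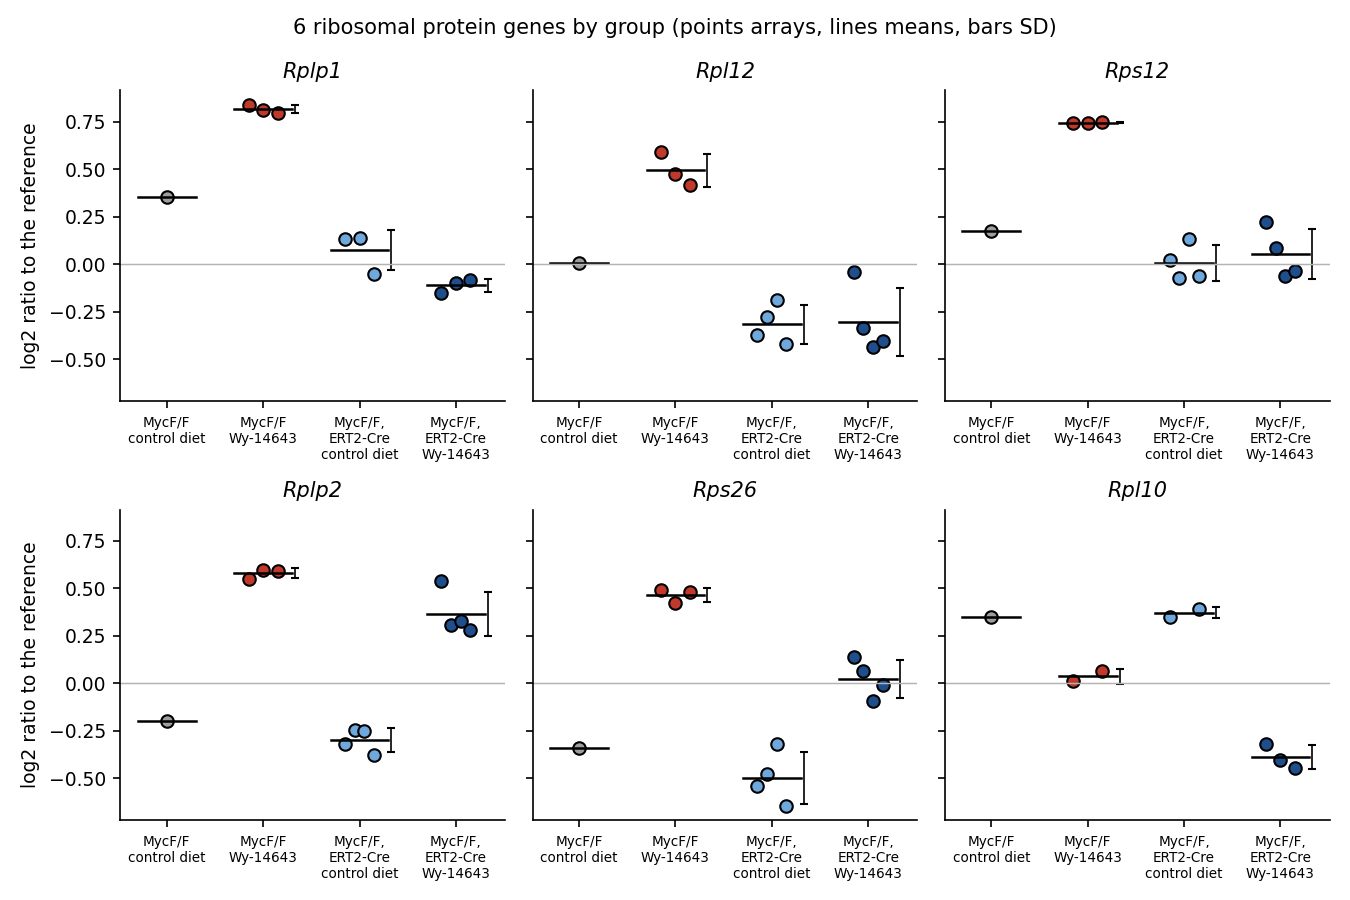
Log2 ratio to the pooled reference (y axis) of 6 ribosomal protein genes in the 4 groups (x axis). Points are arrays, lines are group means and bars are SD, with no bar for the lone MycF/F control array. Rplp1, Rpl12 and Rps12 are highest in MycF/F livers on Wy-14643, Rplp2 and Rps26 are higher on Wy-14643 in both genotypes, and Rpl10 is lower on Wy-14643 in both (−0.39 against 0.37 with ERT2-Cre, 0.04 against 0.35 without).

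In MycF/F livers the effect of Wy-14643 was measured as 3 arrays against the lone pooled control array, which the fit assumes to vary like the other groups. Ribosomal protein genes were higher on Wy-14643 here: 75 of the 80 that could be fitted were above 0, against 49.5% of all genes, with a median of 0.39 where all genes had −0.00. After adjustment 11 of the 80 rose and 0 fell, where 6.6% of all 24910 genes tested were called, 3.37% as higher and 3.24% as lower. At an unadjusted p under 0.05, 44 were higher and 1 lower, the latter being Rpl10 at −0.31.

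Rps26 rose by 0.80 (SE 0.14, limma adjusted p = 0.00343), from −0.34 to 0.49, 0.42 and 0.48. Rplp2 rose by 0.78 (SE 0.12, limma adjusted p = 0.00215), from −0.20 to 0.55, 0.60 and 0.59. Rpl23a rose by 0.77 (SE 0.16, limma adjusted p = 0.0205), from −0.22 to 0.56, 0.49 and 0.60. Rpl35, a protein at the tunnel exit with the long C and T run shown above, rose by 0.63 (SE 0.14, limma adjusted p = 0.0234), from −0.05 to 0.53, 0.60 and 0.63. Rps12 rose by 0.57 (SE 0.13, limma adjusted p = 0.0225).

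Rpsa had the largest of the 11 rises at 0.83 (SE 0.14, limma adjusted p = 0.0127, n = 2), from −0.44 to 0.40 and 0.39, but its second probe gave 0.14. The others called were Rpl13 (0.58), Rps14 (0.51), Rpl13a (0.47), Rplp1 (0.46) and Rps9 (0.42), with adjusted p from 0.0369 to 0.0499. Leaving out 1 array at a time, 2 to 12 genes were called. Without MycF/F replicate 3 on Wy-14643 2 of 77 were called, against 4.44% of all genes. Without replicate 2 it was 3 of 80, against 4.58%, and both shares were below that background. The median difference stayed between 0.35 and 0.43, and only leaving out a MycF/F array on Wy-14643 can move it. With median centring and with Cy5 alone 0 of the 11 calls were left, at medians of 0.62 and 0.45, where 0.875% and 1.03% of all genes were called. With the replicate block 5 of 57 genes were called, against 6.44% of all genes. Rpl23a (0.81, adjusted p = 0.0535), Rpl35 (0.57, 0.13) and Rps14 (0.46, 0.14) were among those lost.

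Both drug comparisons can be set side by side. Their means share no array, but the fit gives them a common estimate of the spread, so their p-values are not independent. Each also shares arrays with the genotype comparison above. Rplp2 rose by 0.66 with ERT2-Cre and by 0.78 without it, and Rps26 by 0.52 and 0.80. Rplp1 had −0.19 and 0.46, Rpl12 0.01 and 0.49, and Rps12 0.05 and 0.57. Rpl10 had −0.76 and −0.31. The difference of the drug effects was tested as the interaction, which again rests on the lone control array. None of the 80 genes was called by limma, 0% of 24873 genes in all were called, and 0 were called under every setting tried. At an unadjusted p under 0.05, 20 of the 80 had an interaction below 0 and 0 above 0, Rpl10 with its 2 negative drug differences among the 20, against 2.18% of all genes in either direction.

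Of the 80 interaction values 78 were below 0, against 42.2% of all genes, with a median of −0.32. The lowest were Rpl22l1 (−1.0, SE 0.33), Rpl3 (−0.76, SE 0.51), Rplp1 (−0.65, SE 0.15) and Rps19 (−0.64, SE 0.25), and the highest Rpl21 (0.06, SE 0.19), Rpl7l1 (0.02, SE 0.19), Rps27 (−0.04, SE 0.25) and Rpl22 (−0.07, SE 0.21), each with a limma adjusted p of 1. Rpl21, Rpl7l1, Rps27 and Rpl22 changed sign under some settings. With median centring the median was −0.12 and 63 of 80 were below 0.

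**Figure D4:**
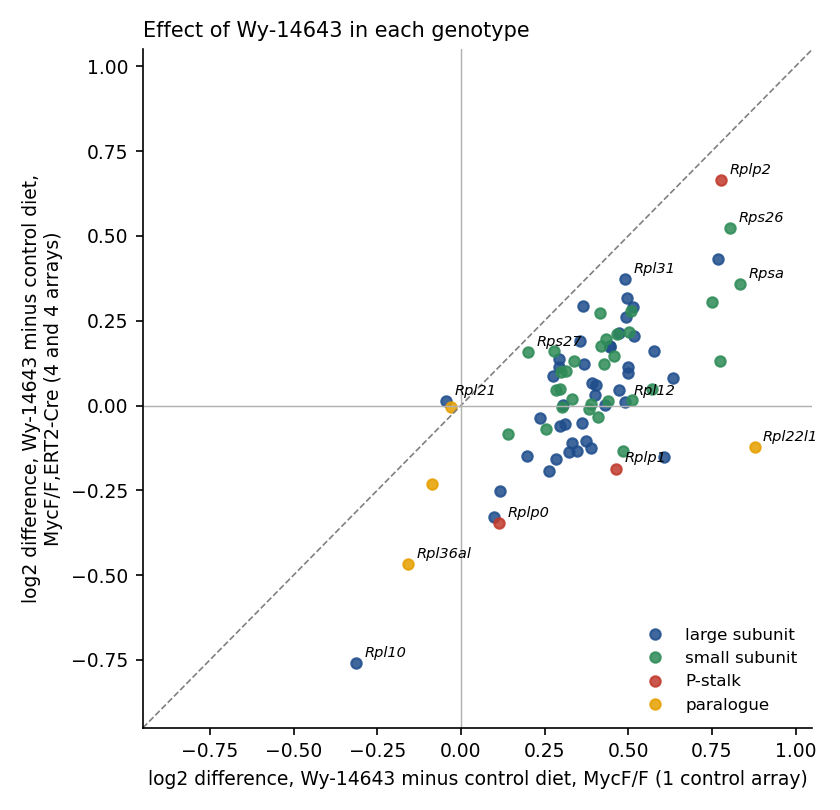
Log2 difference, Wy-14643 minus control diet, of 80 ribosomal protein genes in MycF/F livers (x axis, 3 arrays against 1) and in MycF/F,ERT2-Cre livers (y axis, 4 against 4). Points are genes coloured by place in the ribosome, and the dashed line marks equal effects. 78 points lie below the line, with Rplp2 (0.78 and 0.66) at the upper right and Rpl10 (−0.31 and −0.76) at the lower left.

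On control diet the genotypes were compared as 4 MycF/F,ERT2-Cre arrays against the lone MycF/F array. None of the 80 genes was called by limma, 0% of 24898 genes in all were called, and at an unadjusted p under 0.05 only Rplp1 was lower (1 gene, against 1.78% of all genes in either direction). The median difference was −0.06 and 57 of 80 were below 0, against 54.6% of all genes, and with median centring it was −0.25. The lowest were Rpl12 (−0.32), Rplp1 (−0.28), Rpl31 (−0.26) and Rpl39 (−0.24), and the highest Rpl3 (0.34), Rps19 (0.22), Rpl24 (0.18) and Rpl22l1 (0.17), with a limma adjusted p of 1 each. The signs of Rpl39, Rpl3, Rps19, Rpl24 and Rpl22l1 turned under other settings. The median 95% interval of the 80 genes reached 0.33 to each side, so a shift of the size seen on Wy-14643 was near the limit of what this lone array could show for a gene.

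The genes varied together over the arrays. Over 2847 pairs of genes with at least 8 arrays in common, Pearson's r had a median of 0.83 (quartiles 0.64 and 0.91), given as a description, since the points share arrays, normalisation and reference. Set against the median of the other ribosomal protein genes, Rpl10a and Rps4x were among the most alike (r = 0.99 over 9 and 8 arrays). The least alike were Rps27l (r = −0.31 over 8 arrays), Rpl21 (0.01 over 12), Rpl10 (0.06 over 8), Rpl36al (0.16 over 9), Rpl7l1 (0.29 over 12) and Rps27 (0.43 over 12). Of these 6 genes 3 are paralogues (Rps27l, Rpl36al and Rpl7l1).

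Rpl21 was flat, with values between −0.35 and 0.06 on the 12 arrays and differences of −0.04, 0.01 and −0.04 for genotype on Wy-14643 and for the drug with and without ERT2-Cre. Rps27 read 0.22, 0.17 and 0.35 in MycF/F livers on Wy-14643 and 0.67, 0.29, 0.16 and 0.17 in MycF/F,ERT2-Cre livers, which overlap. Its highest value came from slide 1.

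Genes around the ribosome were set beside these. Of 19 elongation factors and other TOP messenger RNAs, 18 were below 0 for genotype on Wy-14643 (median −0.21, 0 called). Of 32 ribosome biogenesis genes 29 were below 0 (median −0.25) and 1 fell, Nop56, a core protein of the particles that methylate ribosomal RNA (−0.65, SE 0.09, limma adjusted p = 0.0257). Of 16 export, assembly and chaperone genes 13 were below 0 (−0.15, 0 called). The 9 genes of TOP translation control and the 11 of the MYC and MAX network had medians of −0.02 and −0.03. A list of 10 genes that holds Trp53 itself, Mdm2, Mdm4 and p53 targets had −0.01, with 0 called in each list.

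Mitochondrial ribosomal protein genes, whose products serve the separate ribosome of mitochondria, had a different set of values. Their median for genotype on Wy-14643 was −0.11 (62 of 76 below 0, 0 called), where that of the cytosolic genes was −0.37. On Wy-14643 43 of the 76 rose in MycF/F,ERT2-Cre livers (median 0.33), where 8.95% of all genes rose. In MycF/F livers 13 rose (median 0.39), where 3.37% of all genes rose, and 0 fell in either. The cytosolic genes had medians of 0.05 and 0.39 in the same comparisons, but 0.46 and 0.62 with median centring in place of loess. The mitochondrial list was summarised under loess only, so it is not known whether the contrast holds under another scaling. The difference between the lists was not tested.

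With ERT2-Cre, Mrto4 and Tsr1, both assembly factors, rose on the drug by 0.66 (SE 0.07, limma adjusted p = 7.14e-05) and 0.55 (SE 0.13, adjusted p = 0.0159). In all, 5 of 32 biogenesis genes rose there and 0 fell, and 3 of 19 TOP genes rose and 1 fell, where 8.95% of all genes rose and 7.43% fell. Mtor, the kinase upstream of TOP translation, rose by 0.62 (SE 0.10, limma adjusted p = 0.000969). Beside these drug effects, 6 of 11 macrophage markers, 4 of 10 endothelial, 4 of 10 stellate, 3 of 11 lymphocyte, 2 of 5 erythroid and 4 of 8 hepatocyte markers fell in the same comparison, against the same 7.43% of all genes. Of 7 cholangiocyte markers 1 fell and 1 rose, and of 7 neutrophil markers 0 were called. The part of cell content in the ribosomal protein values was not tested.

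**Figure D5:**
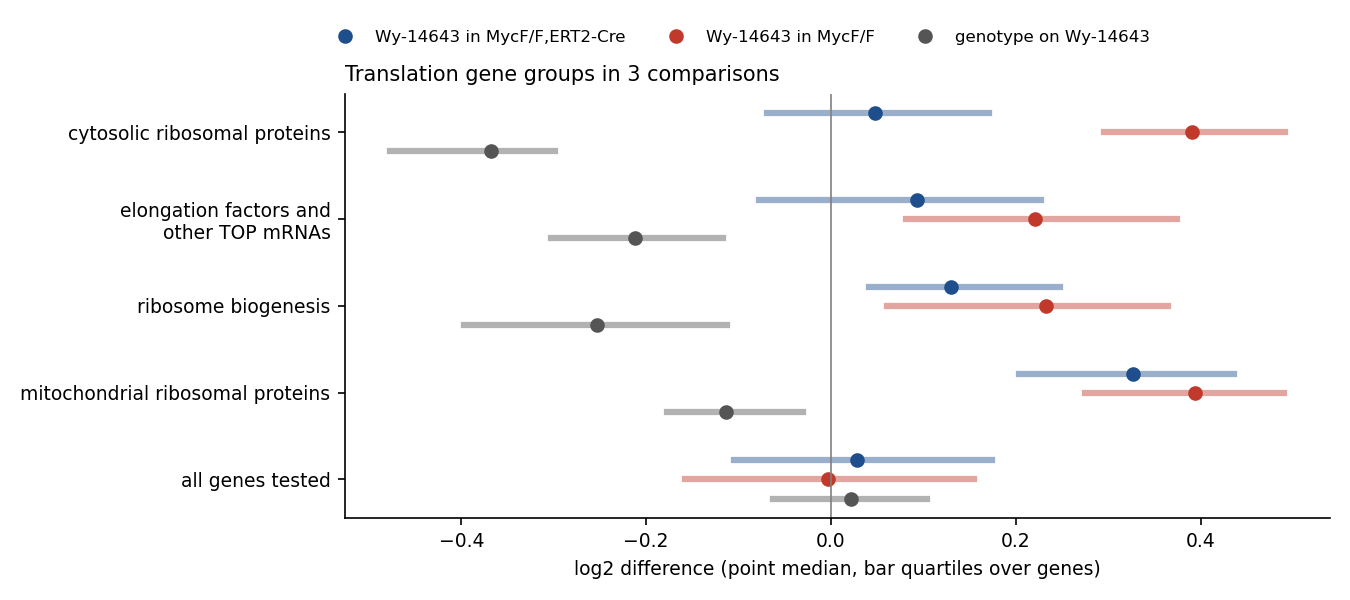
Log2 difference (x axis) of 4 groups of translation genes and of all genes tested (y axis) in 3 comparisons, marked by colour. Points are medians and bars span the quartiles over genes. For genotype on Wy-14643 the cytosolic ribosomal protein genes have the lowest median (−0.37), and for Wy-14643 in MycF/F,ERT2-Cre livers the mitochondrial ones have the highest (0.33). All values are under loess, and with median centring the cytosolic median in the latter comparison was 0.46.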

How the data were processed

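Whole-liver RNA was read on 12 Agilent 2-colour arrays, where Cy5 marked the sample and Cy3 a pool of liver RNA that served as reference, per the labels. The deposited values are scanner intensity values per spot (medians of signal and of local background) written by Agilent Feature Extraction 11.0.1.1, as the submitters' processing notes name it. The deposited log10 ratio of the same software, per the file headers, was used only as an alternative. In R 4.3.3 with limma 3.58.1, intensities were background-corrected by normexp (offset 50) and the log2 ratio was loess-normalised within each array. Control spots had no weight in the loess, and spots marked as outliers were left out. Spots of a probe were averaged, and probes were kept where 3 or more of the 12 arrays had a Cy5 signal well above background (on a share of at least 0.5 of the spots). This left 31861 of 41174 probes, 115 of them of ribosomal protein genes, and each gene was represented by its brightest probe. Probes were named by matching accessions to RefSeq genes of GRCm38.p6. That build differs from the array design's, and probes were not placed within genes.

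A model with 1 mean per group (8 residual degrees of freedom) was fitted to all 25270 genes or unnamed probes with lmFit and eBayes. Tests were two-sided, Benjamini-Hochberg adjustment ran across every gene tested in a comparison, and calls were made at an adjusted p under 0.05. Where a group kept 1 array, that array is assumed to vary like the others. The fit was tested on simulated data. Arrays of equal replicate number in the 2 genotypes on Wy-14643 lay on the same slide and had r of 0.416, 0.144 and 0.137 over genes. The number was treated as pairing them, and the blocked value stands beside that result. Number and slide cannot be told apart in these pairs. MycF/F arrays on Wy-14643 and same-numbered MycF/F,ERT2-Cre arrays on control diet had r of 0.355, −0.0722 and 0.289, where only the first pair shared a slide. The highest correlation between any arrays was 0.90, far from that of identical arrays.

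The genes, the other gene lists and the rules were chosen with earlier results of these data known. The genes named are the called ones (up to 8 in each direction, or the 4 highest and 4 lowest where under 3 were called), a list of members with known roles and their paralogues, and up to 3 called genes of other lists. Values of some genes that this rule names are not reported here. The number of arrays limits the precision.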

Additional observations from a re-analysis of the deposited data

How the results depend on the processing

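For genotype on Wy-14643 the median of the ribosomal protein genes stayed between −0.41 and −0.33 under the 26 alternatives, left-out arrays included. Leaving out a control diet array could not move this median (−0.37 for each), only the calls. At least 96.1% of the genes were below 0 under each alternative, while calls ranged from 0 to 10 genes (0 to 110 among all genes, against 17). No gene was called there with the deposited log ratio, median centring, Cy5 alone or the replicate block (0 each). There were 7 calls with quantile normalisation (0.381% of all genes in either direction) and 8 with outlier spots kept (0.135%). With the mean of all probes of a gene there were 5 (0.107%), and without slide 1 there were 10 (0.438%). With slide as a block there were 3 (0.124%), and 7 when outlier spots were kept as well (0.158%), an alternative chosen after seeing the data. Leaving out 1 array at a time gave 0 to 5 calls, and 5 came without MycF/F,ERT2-Cre replicate 3 on control diet (0.0795%).

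In the rest of this section, percentages after counts of calls are shares of all genes called in either direction. For Wy-14643 in MycF/F,ERT2-Cre livers 3 genes were called with the deposited log ratio (14.3%) and 1 with Cy5 alone (5.11%). There were 13 of 81 with outlier spots kept (16%), 5 of 81 without slide 1 (17.8%) and 5 of 57 with the replicate block (17.3%). With outlier spots kept and slide as a block 15 of 81 were called (19.1%), and 6 to 9 with 1 array left out (12.4% to 16.4%). For Wy-14643 in MycF/F livers 6 were called without background subtraction (6.35%) and 2 with the deposited log ratio (4.24%). With median centring 0 were called (0.875%), as with Cy5 alone (1.03%). There were 7 with the filter requiring all arrays (8.81%), 19 without slide 1 (11.4%) and 5 of 57 with the replicate block (6.44%). With 1 array left out there were 2 to 12 (4.44% to 7.61%). Blocked fits left out genes that could not be fitted, so they hold 57 of the 81 genes for the replicate number and 60 for the slide. Same-numbered MycF/F,ERT2-Cre arrays of the 2 diets had r of 0.318, −0.0745, −0.0223 and 0.092, so there the number does not pair them.

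Median centring moved the median from 0.05 to 0.46 for Wy-14643 with ERT2-Cre, from 0.39 to 0.62 without it, from −0.06 to −0.25 for genotype on control diet and from −0.32 to −0.12 for the interaction. Whole-array calls fell to 891 and 218 for the 2 drug comparisons. The cause was not tested.

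Some genes near 0 changed sign. For genotype on Wy-14643, Fau was −0.0059 without background subtraction, −0.020 with the deposited log ratio, −0.051 with loess fitted without ribosomal protein probes, −0.010 with quantile normalisation, −0.14 with Cy5 alone, −0.062 without slide 1 and −0.074 to 0.059 with 1 array left out. Rps27l was −0.016 with the deposited log ratio, −0.0056 with median centring, −0.037 with loess fitted without ribosomal protein probes, −0.094 with Cy5 alone, −0.0071 with outlier spots kept, −0.0072 when slide was then also a block, and −0.051 to 0.093 with 1 array left out. Rps27 was −0.058 without slide 1 and −0.045 to 0.12 with 1 array left out. For Wy-14643 with ERT2-Cre, Rpl36al was 0.055 with median centring.

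For genotype on control diet, Rps19 was −0.084 and Rpl24 −0.15 with median centring. With Cy5 alone Rpl3 was −1.04, Rpl24 −0.95, Rpl22l1 −0.71 and Rpl39 0.31. Rpl3 was −0.13 without slide 1, −0.29 with outlier spots kept and slide as a block, and −0.13 to 0.82 with 1 array left out. Rpl22l1 was −0.035 with slide as a block, −0.064 without slide 1, −0.046 with outlier spots kept and slide as a block, and −0.064 to 0.33 with 1 array left out. For the interaction, Rps27 was 0.091 and Rpl22 0.043 with median centring. With Cy5 alone Rpl21 was −0.090, Rpl7l1 −0.063, Rps27 0.12 and Rpl3 0.26, and without slide 1 Rpl7l1 was −0.058. With 1 array left out Rpl21 ranged from −0.0074 to 0.13, Rpl7l1 from −0.055 to 0.099, Rps27 from −0.16 to 0.054 and Rpl22 from −0.14 to 0.029.

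Signal was not the limit for these bright probes, since 80 of the 81 genes were well above background on all arrays. The limits are the lone MycF/F control array, the spots without a value on slide 1 and the scaling, which moved medians and ended calls as given above.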
